A study of Mus musculus with 21 samples.

Results

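The genes described here encode 10 proteoglycan core proteins, namely Dcn (decorin), Bgn (biglycan), Lum (lumican), Fmod (fibromodulin), Ogn (osteoglycin), Aspn (asporin), Acan (aggrecan), Vcan (versican), Hspg2 (perlecan) and Gpc3 (glypican-3). They are the 10 rows with these symbols among the 34478 genes of the deposited table. They were chosen by name, with the gain of Dcn and the loss of Acan in MEKi resistant cells already known. The difference between resistant and parental cells is therefore given for them as a description. The count of them past the thresholds in that contrast stands only beside the share of all genes and supports nothing.

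A proteoglycan is a core protein that carries long sulfated sugar chains called glycosaminoglycans. The small leucine-rich proteoglycans, to which Dcn, Bgn, Lum, Fmod, Ogn and Aspn belong, bind collagen fibrils and growth factors in connective tissue. Acan and Vcan bind hyaluronan and are held there by link proteins, Acan being the main space-filling proteoglycan of cartilage. Hspg2 is a heparan sulfate proteoglycan of basement membranes, and Gpc3 is a heparan sulfate proteoglycan anchored in the cell membrane. In pancreatic cancer much of the proteoglycan matrix is known to be laid down by stromal fibroblasts, whereas the samples here were cultured tumor cells.

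RNA was sequenced from 6 primary murine PDAC cell lines, numbered #3, #4, #6, #7, #9 and #10, each grown from the tumor of a different genetically engineered mouse (Ptf1awt/Cre and Trp53loxP/loxP among its alleles), in which Ptf1a drives the Cre that deletes Trp53. All samples share the same genotype. Parental cells had not been treated with the MEK inhibitor (MEKi) trametinib, resistant cells were grown in trametinib at 100 times their IC50, and withdrawn cells had been resistant before they were kept in drug-free medium for 12 passages (P12, 6 lines) or 5 passages (P5, lines #3, #7 and #9). The P5 samples of #7 and #9 carry 5 passages in their title and 12 in their description. Each line was sequenced once in each state, so the lines are the replicates (n = 6 for parental, resistant and P12, n = 3 for P5), and the study describes resistant cells as grown out from single clones in the lines it examined by genome sequencing. Values are normalized counts, that is reads per gene after scaling between libraries, which held an estimated 24.0 to 42.6 M reads. A signal of 3 reads, at or under which a gene was taken as undetected here, was worth 2.31 to 4.07 normalized counts, which covers counting error only.

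The labelled cell type was checked on marker genes. Of 10 markers of pancreatic ductal epithelium, 8 to 9 were over 3 reads in parental, 6 to 8 in resistant and 7 to 9 in P12 libraries, while Epcam was listed at 0 in every library other than P5 of line #3 (3.61), and whether this is a failed estimate could not be settled from the table. The summed level of these markers was 18451 to 296239 normalized counts in parental (median 258027), 1821 to 212389 in resistant (median 62741), 3435 to 242620 in P5 (median 24324) and 4068 to 213457 in P12 cells (median 52861). Of 9 tested, 3 (Cldn4, Muc1 and Sox9) passed as lower in resistant than in parental cells (limma, 4 at an unadjusted p under 0.05), against 5.30% of all genes. In the paired fit 6 did, with Cdh1, Krt8 and Krt18 added, against 10.5% of all genes. Of 14 fibroblast markers, 5 to 13 were over 3 reads in parental and 8 to 14 in resistant libraries, and their summed level was 1501 to 27657 in parental (median 3559), 1345 to 587640 in resistant (median 128351), 4699 to 85022 in P5 (median 53221) and 2489 to 157692 in P12 cells (median 28795). The median sum of fibroblast markers was thus highest in resistant cells, although the ranges overlapped. Between resistant and parental cells 0 of 14 fibroblast markers passed (limma, 6 at an unadjusted p under 0.05), against 5.30% of all genes. In the paired fit 4 (Col1a1, Col3a1, Pi16 and Postn) passed as higher, against 10.5% of all genes. The part of the fibroblast markers in the results on Dcn, Fmod and Ogn was not tested. In such bulk samples, more cells of a type and more RNA per cell cannot be told apart. Markers of pericytes and smooth muscle summed to 25.3 to 2289 in parental and 233 to 20750 in resistant cells, with Myh11 at 0 in all resistant libraries. Acta2 (medians of 25.5 and 5107) and Cnn1 (2.63 and 271) were higher in resistant cells in 6 of 6 lines, whereas Rgs5 (2.50 and 1.01) was lower in 6 of 6. Of 6 tested, 0 passed (limma, 3 at an unadjusted p under 0.05), or 1, Cnn1, as higher in the paired fit (adjusted p = 0.0031). Markers of endothelium summed to 42.0 to 168 in parental (median 65.8) and 22.5 to 2756 in resistant cells (median 389), with Emcn at 0 in all resistant libraries, and Tek rose from a median of 1.45 to 274 (log2 change 5.90, adjusted p = 0.0020). Tek was the only 1 of 5 tested that passed. Kdr was higher in 4 of 6 lines, Tie1 in 3, Pecam1 in 2 and Cdh5 in 0. Markers of leukocytes summed to 63.9 to 446 in parental (median 128) and 55.5 to 2792 in resistant cells (median 164), and Cd53 fell from a median of 57.1 to 0 (log2 change -5.31, adjusted p = 0.0024). Csf1r went the other way in 6 of 6 lines, from a median of 12.3 to 54.0 with up to 2530, but missed the threshold (limma, adjusted p = 0.049). Ptprc was lower in 6 of 6 lines and Lcp1 in 3, and neither passed.

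Of the 10 genes, 8 reached the level required for testing, which was at least 10 normalized counts in at least 3 libraries. Lum and Aspn did not, each being over 10 in 1 library only. Levels of different genes were compared per kb of the longest annotated transcript. In parental cells Hspg2 (median 1195 normalized counts per kb) and Acan (1027) were the highest, with overlapping ranges, and Vcan (42.9), Bgn (10.2) and Dcn (2.30) followed. In resistant cells Dcn led with a median of 20892 per kb, followed by Hspg2 (5646), Ogn (426), Vcan (91.4), Fmod (46.7) and Bgn (7.15), while Acan had a median of 0.20. The Dcn range in resistant cells (152 to 37525 per kb) held that of Hspg2 (2920 to 8806), so that these neighbors in the order were not separated beyond the spread between lines, whereas Hspg2 and Ogn (1.59 to 1529) did not overlap. In P12 cells the order of the medians was Hspg2 (1441 per kb), Bgn (226), Vcan (192), Dcn (112), Ogn (51.0), Acan (29.1) and Fmod (5.30), and the ranges of neighbors in this order overlapped.

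Several of the genes lie in clusters of related genes (GRCm38, positions from the RefSeq annotation). Dcn spans chr10:97479500-97518163 and is followed by Lum, 47338 bases away, Kera and Epyc. Ogn (chr13:49608015-49624501) lies in a row with Ecm2, Aspn and Omd, and Fmod (chr1:134037254-134048280) follows Optc and Prelp. Acan spans chr7:79053226-79115099 with the link protein gene Hapln3 only 1928 bases away. Vcan (chr13:89655309-89743027) has the link protein gene Hapln1 as its neighbor, and Gpc3 (chrX:52272426-52613974) has Gpc4. Hspg2 (chr4:137468751-137570630) and Bgn (chrX:73483601-73495936) have no proteoglycan gene next to them.

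Promoter sequences, from 250 bases before to 50 bases after the start of the gene (RefSeq, GRCm38.p6), were found for 8 of the 10 genes, which leaves out Dcn and Lum. Those of Acan, Fmod and Ogn are shown because they differ in base composition. All 3 are on the plus strand and are written 5′ to 3′, with each CG dinucleotide in capitals.
Acan, chr7:79052976-79053275: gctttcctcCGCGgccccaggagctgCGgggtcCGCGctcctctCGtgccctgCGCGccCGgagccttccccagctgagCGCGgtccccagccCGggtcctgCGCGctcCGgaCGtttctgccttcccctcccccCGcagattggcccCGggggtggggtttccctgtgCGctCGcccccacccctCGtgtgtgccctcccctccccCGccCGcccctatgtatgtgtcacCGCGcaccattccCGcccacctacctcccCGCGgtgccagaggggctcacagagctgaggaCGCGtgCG
Fmod, chr1:134037004-134037303: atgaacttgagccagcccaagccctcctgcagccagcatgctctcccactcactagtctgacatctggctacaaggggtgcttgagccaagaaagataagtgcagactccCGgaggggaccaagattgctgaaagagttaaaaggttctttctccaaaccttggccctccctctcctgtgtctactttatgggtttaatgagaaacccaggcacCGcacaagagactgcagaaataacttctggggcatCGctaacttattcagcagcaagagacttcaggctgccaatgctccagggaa
Ogn, chr13:49607765-49608064: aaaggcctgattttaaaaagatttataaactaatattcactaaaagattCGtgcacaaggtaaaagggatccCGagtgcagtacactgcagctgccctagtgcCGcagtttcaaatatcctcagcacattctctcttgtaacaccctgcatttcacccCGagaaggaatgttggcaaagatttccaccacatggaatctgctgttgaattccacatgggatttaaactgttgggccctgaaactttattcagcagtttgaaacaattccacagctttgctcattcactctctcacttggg
The Acan promoter held 31 CG dinucleotides, as many as or more than which were found in 10.6% of 32851 promoters of the same length, whose median was 7. The promoters of Hspg2 (27) and Gpc3 (30) were similarly rich, Vcan held 12 and Bgn 9. In contrast, the promoters of Ogn (4), Fmod (3) and Aspn (3) held few, 31.4% of all promoters having as few as Fmod or fewer. The letters TGAGTCA, a binding motif of AP1, were not found on either strand (TGACTCA on the other) in any of the 8 windows, and 5.20% of all promoters held them.

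Dcn was close to undetected in parental cells and among the most abundant proteoglycan mRNAs in resistant cells. Its normalized count in parental cells was 19.8 in line #3, 4.96 in #4, 5.39 in #6, 3.11 in #7, 2.90 in #9 and 0.935 in #10. In the resistant cells of the same lines it was 51487, 63920, 65969, 1424, 268 and 21970. The groups did not overlap, and among the resistant cells lines #7 and #9 stood well below the other 4. In lines #3, #4, #6 and #7, the difference corresponded to a 2603-fold, 12879-fold, 12246-fold and 459-fold higher level, and in #9 and #10 the parental cells were at or under 3 reads. Over the 6 lines the difference was 11.0 ± 3.09 on the log2 scale (SD, n = 6, pseudocount of 1).

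After withdrawal of trametinib, the Dcn level differed widely between the lines. In P12 cells it was 300.5 normalized counts in line #3, 1304 in #4, 20386 in #6, 0 in #7, 94.3 in #9 and 10.6 in #10. It was thus lower than in resistant cells in 6 of 6 lines, at least 464-fold in line #7 and only 3.24-fold in #6 and 2.84-fold in #9. The log2 change of P12 against resistant cells was -6.26 ± 1.97 (SE) and missed the threshold (limma, adjusted p = 0.065), whereas it passed in the paired fit, in which the cell line enters as a block (adjusted p = 0.0096). Against parental cells, Dcn in P12 was higher in 5 of 6 lines, with a log2 change of 4.74 (adjusted p = 0.26), and the groups overlapped. Where P5 was sequenced, Dcn was 806 in line #3, 1.92 in #7 and 247 in #9, which was higher than in P12 of the same line by 1.42 on the log2 scale in line #3 and by 1.38 in #9. In line #7 both P5 and P12 were at or under 3 reads.

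Acan showed the opposite order of states. Its normalized count in parental cells was 6135 in line #3, 8973 in #4, 14755 in #6, 1488 in #7, 779 in #9 and 10790 in #10. In resistant cells it was 5.98, 0, 0, 0, 5.18 and 2.94 in the same lines, so that no resistant library held more than a few reads and the groups did not overlap. The level was at least 2205-fold lower in line #4, at least 4103-fold in #6 and at least 487-fold in #7, taking 3 reads in the resistant library as the bound. Over the 6 lines, the log2 difference of resistant and parental cells was -10.95 ± 2.48 (SD, n = 6).

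Withdrawal separated the lines by Acan as well. In P12 cells Acan stood at 2.92 normalized counts in line #3, 385 in #4, 42.7 in #6, 2186 in #7, 40.0 in #9 and 5683 in #10. Line #7 was above its own parental level (1.47-fold) and line #10 was 1.90-fold below it, whereas line #3 remained at the level of resistant cells. P12 was above resistant in 5 of 6 lines, with a log2 change of 6.26 ± 1.52 (SE), which missed the threshold (limma, adjusted p = 0.017, and 0.011 in the paired fit). Against parental cells the log2 change of P12 was -4.69 (adjusted p = 0.15), with Acan lower in 5 of 6 lines. P5 gave 3.75 in line #3, 749 in #7 and 8.54 in #9, with line #7 highest and line #3 lowest of these 3, as in their P12 cells.

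**Figure D1:**
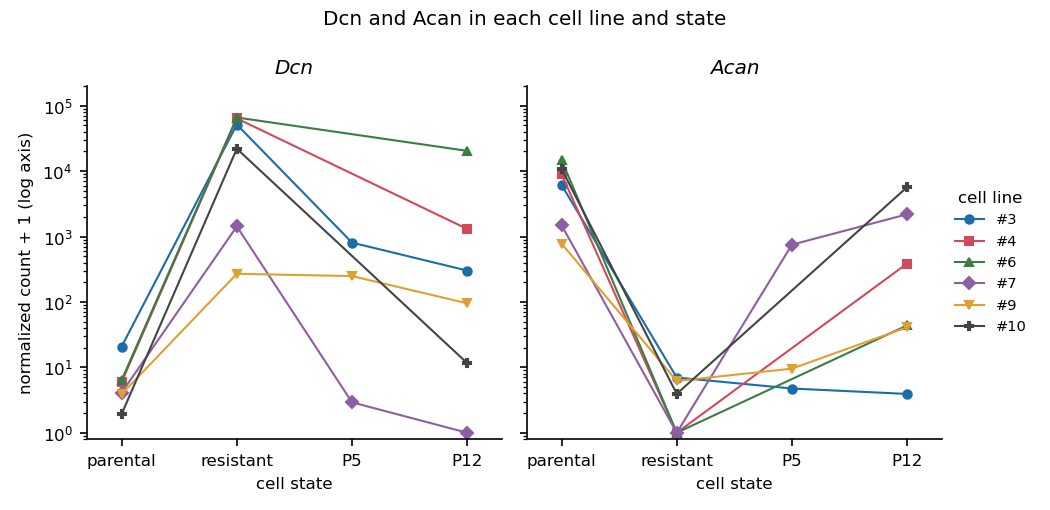
Normalized counts of Dcn (left) and Acan (right), plus 1 and on a log axis, in each of the 6 cell lines by state. Each line of the plot joins the states of 1 cell line, and P5 exists for lines #3, #7 and #9. Dcn was highest in resistant cells of every line and Acan lowest there in every line except #3, in which P5 and P12 were lower by a few reads only.

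On a scale where 0% is the parental and 100% the resistant level of the same line (log2 values), P12 cells kept a median of 46.1% of the Dcn difference (from -24.1% to 87.3%) and 47.6% of the Acan difference (from -5.26% to 109%). These medians stood between lines that had nearly returned and lines that had not. For Dcn, line #6 kept 87.3% and line #9 75.5%, while line #10 kept 19.2%. The -24.1% was that of line #7, in which Dcn was near the limit of detection in parental (3.11 normalized counts) and at 0 in P12 cells. A fall below the parental level therefore cannot be read from it. For Acan, line #3 kept 109%, lines #6 and #9 60.6% and 60.9%, and lines #10 and #7 8.10% and -5.26%. The 109% rests on a few reads (5.98 normalized counts in resistant and 2.92 in P12 cells), so no further loss can be read from it. In lines #4, #6 and #7 the resistant level was 0, so their percentages depend in part on the pseudocount. Lines #7 and #10 were thus nearest to their parental cells in both genes, a description of 6 lines to which no test was applied. In 18 samples of 6 lines and 3 states (P5 left out), the state accounted for 65.8% of the variance of log2 Dcn and for 78.0% of that of Acan, and the line for 19.8% and 5.42%.

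Fmod, a collagen-binding proteoglycan with keratan sulfate chains, followed Dcn in most lines. It ranged from 0 to 10.2 normalized counts in parental cells (median 1.03) and from 0 to 12019 in resistant cells (median 146). The groups overlapped, because Fmod was at 0 in resistant cells of line #7, while lines #3 (12019) and #4 (3762) were far above the others. P12 cells ranged from 0 to 295 (median 16.5), and their log2 change was -4.10 against resistant (adjusted p = 0.23) and 2.22 against parental cells (adjusted p = 0.60).

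Ogn, which also belongs to the small leucine-rich family and is known from bone and connective tissue, was higher in resistant than in parental cells in 6 of 6 lines. It was at 0 in parental cells of lines #3, #4, #7 and #10, at 3.69 in #6 and at 451 in #9. Resistant cells gave 1272 in line #3, 989 in #4, 1196 in #6, 4.07 in #7, 3922 in #9 and 724 in #10. Line #7 was therefore the only line in which Ogn stayed near the limit of detection, and line #9 the only one that expressed it before treatment. P12 cells gave 67.5, 243, 194, 0, 1053 and 4.15 in these lines, lower than resistant cells in 6 of 6 lines (log2 change -3.37, adjusted p = 0.39, and 0.043 in the paired fit).

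Bgn, the closest relative of Dcn, did not follow it. In parental cells Bgn was 18362 normalized counts in line #9, 388 in #6, 35.9 in #4, 13.5 in #7, 3.53 in #10 and 2.66 in #3. In resistant cells all lines lay between 0.895 and 81.0, line #9 having a value of 11.0, which was 1666-fold lower than in its parental cells. P12 cells were higher than resistant cells in 6 of 6 lines, at 3271 in line #9, 631 in #6, 1314 in #4, 78.6 in #7, 21.1 in #10 and 462 in #3. The log2 change was 4.53 ± 1.77 (SE), which did not pass the test (limma, adjusted p = 0.15, and 0.023 in the paired fit). In P5 cells Bgn was 603 in line #3, 85.3 in #7 and 4276 in #9, above every resistant library. Over all 21 samples, the Pearson correlation of log2 Bgn with log2 Dcn was -0.03, compared with 0.82 for Fmod, 0.73 for Ogn and 0.83 for Hspg2, which describes samples that share cell lines and states.

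Lum, a collagen-binding relative and the neighbor of Dcn on the chromosome, was near 0 in most samples with a high Dcn level. Lum was at 0 in all samples of lines #7, #9 and #10, and outside line #3 no library held more than 1.21 normalized counts. In line #3 Lum was 0 in parental, 139 in resistant, 6.32 in P5 and 1.75 in P12 cells. Aspn was likewise at or below 4.79 in every library except resistant cells of line #9, which gave 78.8. Both genes thus reached 10 normalized counts in a single resistant line each, and not in the same line.

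Vcan, a hyaluronan-binding proteoglycan of provisional matrix, varied more between lines than between states. It ranged from 257 to 4910 normalized counts in parental (median 533), from 98.2 to 1637 in resistant (median 1135) and from 114 to 5163 in P12 cells (median 2384). Resistant cells were below parental cells in 4 lines and above them in lines #4 and #7. The line accounted for 62.1% of its variance and the state for 9.54%. In line #3, where Acan did not return, Vcan was 456 in parental, 98.2 in resistant, 3616 in P5 and 2821 in P12 cells. The log2 change of P12 was 1.35 against resistant (adjusted p = 0.49) and 0.81 against parental cells, neither of which passed the test.

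Hspg2 was abundant in all samples and higher in resistant than in parental cells of every line. Parental cells gave 12483 to 25347 normalized counts (median 16958) and resistant cells 41426 to 124927 (median 80102), with no overlap and a difference of 2.03 ± 0.66 on the log2 scale (SD, n = 6). P12 cells gave 16650 to 54742 (median 20446). Hspg2 fell from resistant to P12 cells in 6 of 6 lines, by 0.97 to 2.22 on the log2 scale, and its log2 change of -1.48 ± 0.33 (SE) passed the test (limma, adjusted p = 0.0097). This call lay next to the threshold and was lost without any 1 of the 6 lines (adjusted p from 0.012 to 0.065), while adjusted p was 0.0015 in the paired fit. Against parental cells the P12 change was 0.55 (adjusted p = 0.43), with line #6 (3.19-fold) farthest above its parental level. P5 cells were at 16950 to 26755, below every resistant library, but missed the threshold (adjusted p = 0.022).

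Gpc3 reached a high level in a single line only, although it was higher in resistant than in parental cells in 5 of 6 lines. Among these, line #4 was at or under 3 reads in both states, and resistant cells of #9 (7.25) and #10 (5.12) were just over it. In line #3 it was 2.33 normalized counts in parental, 10864 in resistant, 1887 in P5 and 537 in P12 cells. The highest value outside this line was 51.4, in resistant cells of line #6, and line #7 was at 0 in all 4 states. The line accounted for 58.0% of its variance. Its neighbor Gpc4, another glypican, was 264 to 8004 in resistant cells (median 4017) and 0 to 550 in parental cells (median 68.9), higher in 6 of 6 lines, with a log2 change of 5.95 that narrowly missed the threshold (adjusted p = 0.010, and 0.00086 in the paired fit).

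**Figure D2:**
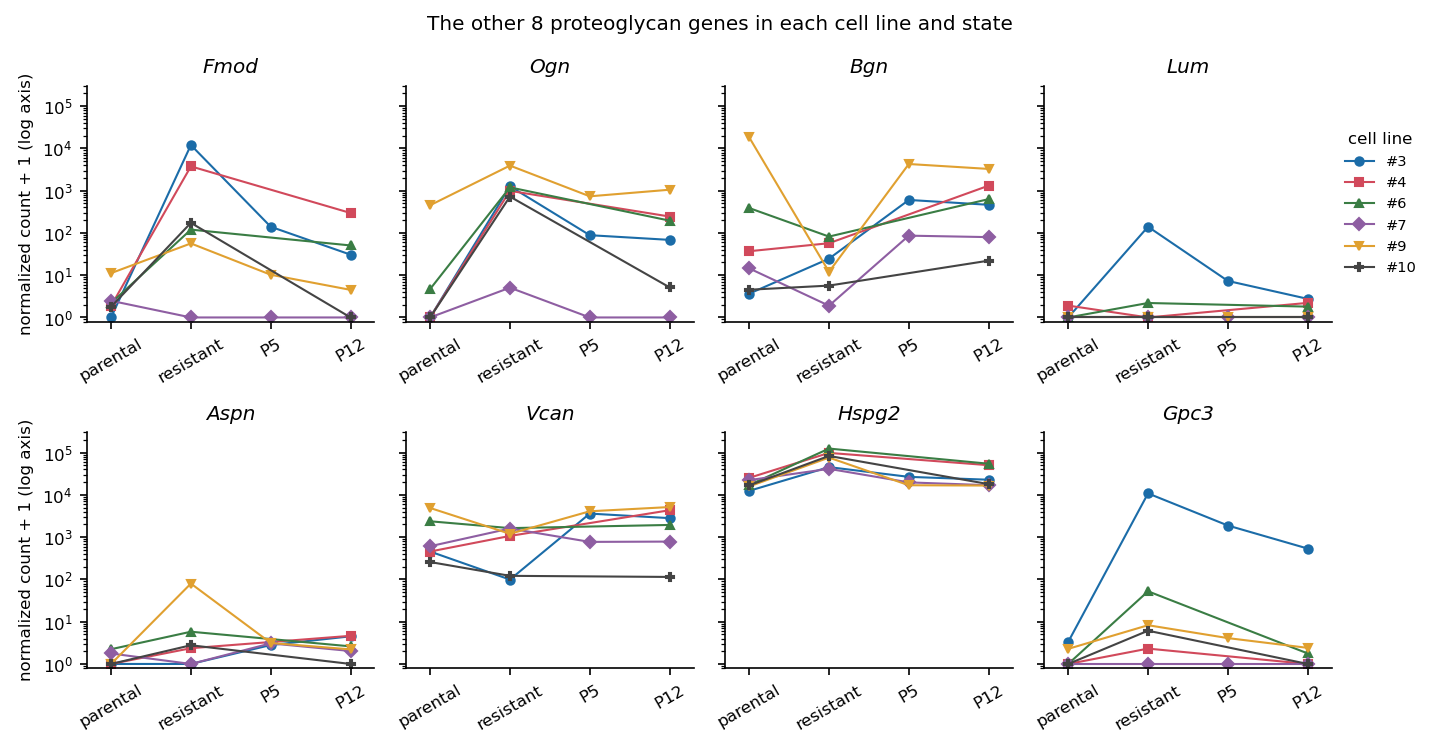
Normalized counts of the other 8 proteoglycan genes, plus 1 and on a log axis, by state, with 1 plotted line for each cell line. Fmod and Ogn peaked in resistant cells of most lines, Bgn was lowest there in lines #6, #7 and #9, Lum and Gpc3 were well above 3 reads mainly in line #3, and Hspg2 was at 12483 or more in every sample.

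Counts over the genes were set beside those over all 19300 genes tested. Between resistant and parental cells, 3 of the 8 tested genes (Dcn, Acan and Hspg2) were past the thresholds of the study (adjusted p below 0.01 and a log2 change above 1 or below -1), where 5.30% of all genes were, and the same 3 had groups that did not overlap, as had 5.99% of all genes. In the paired fit it was 5 of 8, Fmod and Ogn added, against 10.5% of all genes. Nothing is read from these counts, since the genes were selected on this contrast. The contrasts below share their resistant or parental samples with it.

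Between P12 and resistant cells, 1 of 8 genes (Hspg2) passed, against 2.13% of all genes, and in the paired fit 2 of 8 (Dcn and Hspg2), against 4.52%. The direction was the same in all 6 lines for 4 of 8 genes (Dcn, Ogn and Hspg2 lower, Bgn higher), as for 16.0% of all genes. Between P12 and parental cells, 0 of 8 passed (limma, 2 at an unadjusted p under 0.05, and 0 in the paired fit), against 0.114% of all genes, and 0.523% in the paired fit. None of the 8 had the same direction in all 6 lines there, as had 13.4% of all genes. P5 of 3 lines was set against all 6 lines of the other state, and 0 of 8 genes passed (limma) against parental (1 at an unadjusted p under 0.05, 0.0259% of all genes passing), resistant (3 at an unadjusted p under 0.05, 0.378% of all genes passing) or P12 cells (0 at an unadjusted p under 0.05, 0% of all genes passing).

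**Figure D3:**
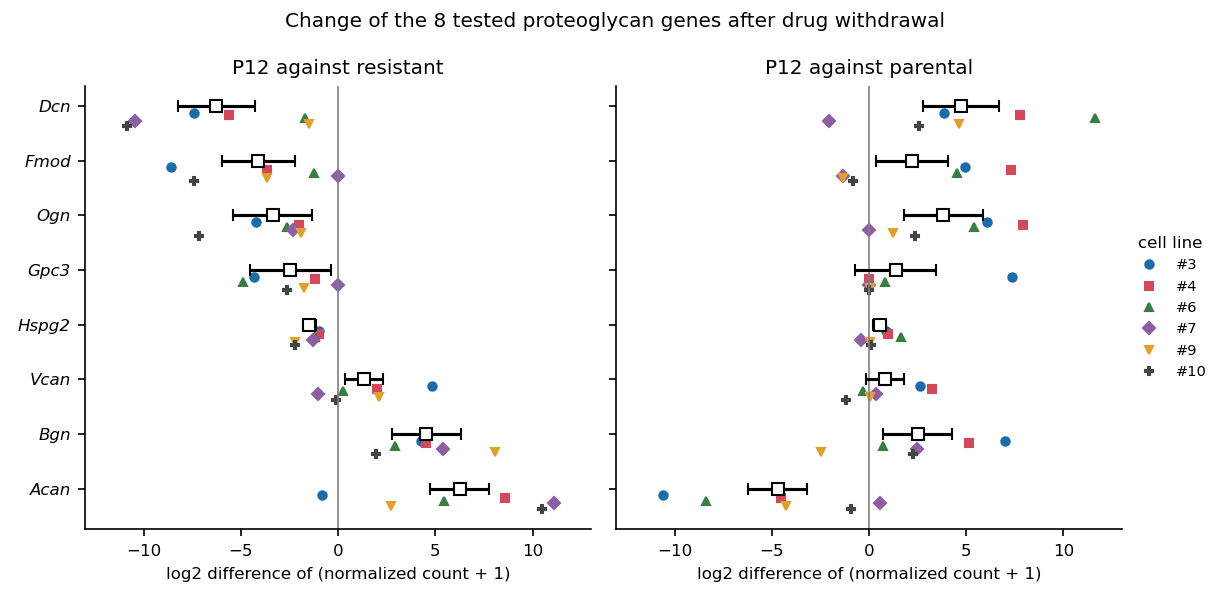
Log2 differences of P12 against resistant cells (left) and against parental cells (right) for the 8 tested genes. Open squares with bars give the limma estimate ± SE and colored symbols the 6 cell lines. Dcn, Ogn and Hspg2 lay below 0 and Bgn above 0 in all 6 lines on the left, and every gene had lines on both sides of 0 or at 0 on the right.

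The neighbors within the gene clusters moved unevenly. In the Dcn cluster, Kera and Epyc stayed at or below 5.39 normalized counts in the parental, resistant and P12 cells in which Dcn reached 65969. Next to Ogn, Ecm2 was between 13.8 and 49.9 and Omd between 5.34 and 450 in these states, with no change past the thresholds. In the Fmod cluster, by contrast, Optc rose from a median of 2.16 in parental to 40.5 in resistant cells in 6 of 6 lines (log2 change 3.29, adjusted p = 0.0039), and Prelp had medians of 1.48 and 128 (log2 change 4.58, adjusted p = 0.057, and 0.0054 in the paired fit). Optc met the filter for testing through its resistant libraries, being at most 6.20 in parental and 10.3 in P12 cells. Its call as higher there is therefore a description only. Hapln3, beside Acan, stayed between 1.13 and 35.2 normalized counts while Acan went from 14755 to 0, and its log2 change in resistant cells was -0.35 (adjusted p = 0.78). Hapln1, beside Vcan, was between 0.941 and 66.0 (log2 change 0.26, adjusted p = 0.84).

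Other core protein genes were followed in a list of 39, with 11 further small leucine-rich proteoglycans, 24 other matrix and cell surface proteoglycans and 4 link proteins, of which 32 were tested. In resistant against parental cells, 2 rose and 1 fell, against 5.30% of all genes in either direction, and the median log2 change was 0.50 beside -0.0049 over all genes. Nyx (nyctalopin), a small leucine-rich protein known from the retina, rose from a median of 4.44 to 57.8 (log2 change 3.77 ± 0.69 (SE), adjusted p = 0.0014), and Optc (opticin), described above, rose likewise. Col18a1, the collagen that carries heparan sulfate and is the source of endostatin, fell from a median of 12356 to 1653 in 5 of 6 lines (log2 change -2.97 ± 0.72, adjusted p = 0.0095). In the paired fit, Prelp, Gpc4 and the syndecan Sdc2 also passed as higher. Calls in this list hung on single lines, as 0 to 5 genes passed when 1 line was left out, the 0 being without line #3 and the 5 without line #7. Of these 32 genes, 0 passed between P12 and parental cells (limma, 5 at an unadjusted p under 0.05), where 0.114% of all genes did. Between P12 and resistant cells 0 passed (limma, 10 at an unadjusted p under 0.05), against 2.13% of all genes. In the paired fit 1, Optc, passed there as lower, against 4.52% of all genes. Col18a1 had a median of 11435 in P12 cells (adjusted p = 0.022 against resistant).

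Enzymes that build, modify or cut the glycosaminoglycan chains and core proteins, with hyaluronan-binding proteins such as Hmmr, made up a list of 73 genes. Of these, 65 were tested. In resistant against parental cells 5 rose and 2 fell (5.30% of all genes passed in either direction), and 14 passed in the paired fit (10.5% of all genes). The group with most rises was that of proteoglycan cleavage and desulfation, which also holds heparanase and sulfatase genes. In it 3 of 9 tested genes rose and the median log2 change was 2.48. All 3 that rose encode secreted ADAMTS proteases that are able to cut Acan or Vcan. Adamts5, the main aggrecanase of mouse cartilage, rose from 2.46 to 71.3 normalized counts in parental (median 14.9) to 935 to 6665 in resistant cells (median 2453), with a log2 change of 7.20 ± 1.16 (SE, adjusted p = 0.00048). Adamts1 rose from a median of 515 to 13046 (log2 change 4.29, adjusted p = 0.0020) and Adamts8 from 0 to 27.8 (log2 change 4.14, adjusted p = 0.0095), the latter call being lost without line #4, #6, #7, #9 or #10 (adjusted p from 0.017 to 0.045). Each of them was higher in 6 of 6 lines. Adamts8 met the filter for testing through its resistant libraries, being at most 8.13 in parental cells and at a median of 0.61 in P12 cells. Its call as higher there is therefore a description only.

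Among the synthesis genes the called changes were few. Ugp2, which makes UDP-glucose for the sugar chains, rose from a median of 1346 to 5375 (log2 change 1.98 ± 0.23 (SE), adjusted p = 2.5e-05), and Glce, the epimerase of heparan sulfate, from 1336 to 3646 (log2 change 1.19, adjusted p = 0.0022). Ugdh, of the same list as Ugp2, was lower in 6 of 6 lines, with medians of 15618 and 4991 (log2 change -1.93). It missed the threshold (limma, adjusted p = 0.080) but passed in the paired fit (adjusted p = 0.0024). Xylt1 and Ext1 passed as higher in the paired fit (adjusted p = 0.0030 and 0.0069). The hyaluronan synthase gene Has3 fell from a median of 255 to 12.4 (log2 change -3.95 ± 0.67, adjusted p = 0.00077), and the hyaluronidase gene Hyal2 from 2761 to 944 (log2 change -1.46 ± 0.18, adjusted p = 4.3e-05), both in 6 of 6 lines. In the chondroitin and dermatan sulfate synthesis list, which makes the chains of Dcn, Bgn, Acan and Vcan, 0 of 16 genes passed (limma, 7 at an unadjusted p under 0.05, median log2 change -0.21), and in the paired fit Chst12 and Ust passed as higher and Chsy1 as lower. In the keratan sulfate list 0 of 6 genes passed (limma, 4 at an unadjusted p under 0.05), or 1, Chst1, as lower with the block. Of all genes, 5.30% passed in this contrast, and 10.5% in the paired fit.

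After withdrawal, 1 gene of the 65 rose and 3 fell in P12 against resistant cells (2.13% of all genes passed in either direction), and the median log2 change of the list was -0.37 beside 0.022 over all genes. Adamts1 fell from a median of 13046 to 868 (log2 change -4.03 ± 0.83 (SE), adjusted p = 0.0065), Ugp2 fell to 1701 (log2 change -1.54, adjusted p = 0.00057) and the heparan sulfate polymerase gene Ext2 from 7844 to 3030 (log2 change -1.17, adjusted p = 0.0059). Chst1, a sulfotransferase of keratan sulfate, rose from a median of 32.9 to 1847 (log2 change 6.08 ± 1.12, adjusted p = 0.0029), in 6 of 6 lines. Adamts5 had a log2 change of -4.51 and was lower in 6 of 6 lines, which missed the threshold (adjusted p = 0.024, and 0.0021 with the block). Against parental cells, where 0.114% of all genes passed, only Hyal2 of the 65 genes did. It was at a median of 1117 in P12 and so fell by 1.32 on the log2 scale from its parental level (limma, adjusted p = 0.0012). Leaving out line #3 or #6 ended this call (adjusted p = 0.018 and 0.025).

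**Figure D4:**
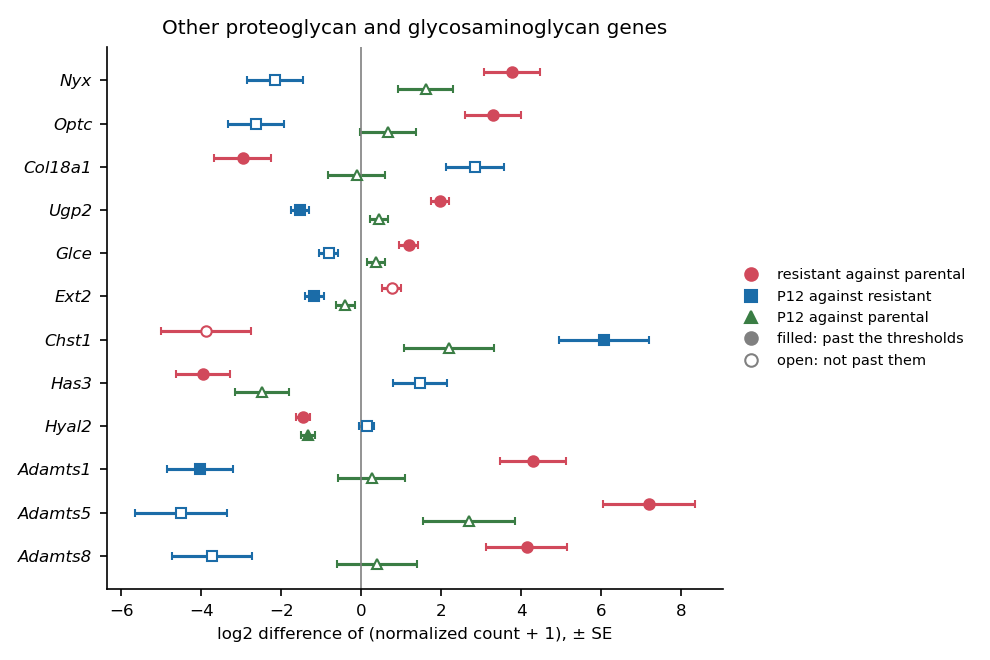
Log2 differences ± SE (limma) of 12 genes of the core protein and glycosaminoglycan lists between the states named in the legend. Filled symbols passed the thresholds and open symbols did not. Adamts1, Adamts5 and Adamts8 were higher in resistant than in parental cells and lower again in P12, while Hyal2 was about as low in P12 as in resistant cells.

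Of 14 cartilage genes fixed for comparison with Acan, 13 were in the table and 9 were tested. Sox9, a transcription factor required for cartilage that also stands in the ductal marker list, fell from 673 to 2421 normalized counts in parental (median 1541) to 37.6 to 679 in resistant cells (median 244), with a log2 change of -3.06 ± 0.62 (SE, adjusted p = 0.0029). It rose again in P12 to 1002 to 3813 (median 2923), a log2 change of 3.84 against resistant cells (adjusted p = 0.0012). In line #3, whose Acan stayed at 2.92 in P12, Sox9 was 3086. Sox6, a partner of Sox9 in cartilage, moved the opposite way, with medians of 52.5 in parental, 443 in resistant and 11.9 in P12 cells. It was higher in resistant than in parental cells in 5 of 6 lines (log2 change 3.41), which missed the threshold (limma, adjusted p = 0.026). From resistant to P12 cells Sox6 fell and passed (log2 change -4.94, adjusted p = 0.0055). The other tested cartilage genes did not pass. In resistant against parental cells, 1 of 9 passed (limma, 5 at an unadjusted p under 0.05), against 5.30% of all genes. The median log2 change of the list was 1.76, opposite in sign to that of Sox9. It was 3.79 for Sox5, 2.87 for Col11a1, 2.00 for Col9a3, 1.76 for Col11a2, 1.39 for Comp, 0.12 for Matn3 and -0.68 for Col2a1. In P12 against resistant cells 1 rose and 1 fell (limma, 4 at an unadjusted p under 0.05), against 2.13% of all genes.

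The genes whose log2 levels correlated best with Dcn over the 21 samples were Ripk2 (Pearson r = 0.95), Rnf112 (0.93), Csrp1 (0.93), Mpdz (0.92) and Macf1 (0.91). For Acan they were Gm19680 (0.91), Mgst3 (0.91), Cmip (0.91), Sgk2 (0.89) and Eml4 (0.89). Dcn and Acan had r = -0.83 with each other, which follows from the choice of a gained and a lost gene. These values describe samples that share cell lines and states and were not tested.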

How the data were processed

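mRNA libraries of 21 samples, from 6 lines of murine PDAC, were analysed (TruSeq Stranded mRNA, paired-end). The deposited table holds a signal for each gene, which the authors made by trimming (Skewer), quasi-mapping (salmon 0.12), summing transcripts to genes (TXImport) and scaling in DESeq2 1.18, and which is called normalized count here. Whole reads could not be recovered (70.5% to 79.8% of low values lay within 0.1 of a multiple of 1 step), so no count test was run, and depth was estimated from that step. The study names more than 1 sequencer without assigning samples, so batches were not analysed. A further allele of the genotype and a marker gene are not reported here.

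Before log2 transformation, 1 was added to each value. Genes with at least 10 normalized counts in at least 3 samples were tested (19300) with limma 3.58.1 (R 4.3.3, lmFit, contrasts and eBayes with a trend) fitting the 4 states together, adjusting by Benjamini-Hochberg and applying the thresholds of the study (adjusted p below 0.01, log2 change above 1 or below -1). The script was tested on simulated data. Positions came from RefSeq and transcript lengths from GENCODE M21 (both GRCm38), matched by symbol. Tables and plots were made with Python 3.11.15, pandas 2.3.3 and matplotlib 3.10.9.

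The members and gene lists were chosen with earlier results of these data known. Named are all 10 members, list genes past the thresholds (at most 4 for each list, contrast and direction), the 5 genes most correlated with Dcn and with Acan, neighboring proteoglycan genes and markers. List genes that passed only with the block, and Adamts5, Col18a1 and Sox9 in further states, were named after their values were seen.

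States of the same cell line were paired, since they come from the same line. Deviations from the group means of same-line samples correlated at 0.16 to 0.35 between resistant and parental, 0.34 to 0.52 between P12 and resistant and 0.0082 to 0.51 between P12 and parental cells. Each was higher than with any other line, except for P12 of line #3 against parental cells (0.0082, and 0.30 with another line). Some margins were small, as for P12 of line #4 against parental cells (0.27 and 0.25). The paired fit, with the cell line as a block, was an alternative, since the methods of the study name no covariate. Further alternatives were pseudocounts of 0.5 and 8, no filter, a mean of at least 100 normalized counts, upper quartile scaling, no trend, an adjusted p below 0.05, only the compared states in the fit, leaving out each line and, chosen after seeing the data, P5 of lines #7 and #9 left out. The P5 and P12 libraries of a line were checked against each other and held 0 identical nonzero values, with 2343 to 2631 of the tested genes more than 2-fold apart.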

Additional observations from a re-analysis of the deposited data

Results flagged for a closer look

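Of 30 groups of 6 libraries (10 genes in parental, resistant and P12 cells), 5 held a library whose gap to the nearest of the others was more than 0.625 of the range of the group on log2 values. The rate of about 1 group in 20 by chance for this cut does not hold here. Groups mostly at 0 are flagged by any single nonzero value, and the groups share cell lines. No excess is therefore read from the count. Ogn was 451 normalized counts in parental cells of line #9, with the other parental cells at 0 to 3.69. Ogn was 4.07 in resistant cells of line #7, with the other resistant cells at 724 to 3922. Lum was 139 in resistant cells of line #3, against 0 to 1.20 in the others. Gpc3 was 537 in P12 cells of line #3, against 0 to 1.40 in the others. Lum in parental cells of line #4 was 0.908, which is under 3 reads, with the others at 0.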

How the results depend on the processing

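Log2 changes were recomputed for the tested members between parental, resistant and P12 cells and for list genes in the contrasts in which they passed, and none of these turned its direction. Other log2 changes were not recomputed. Among the proteoglycan genes described here, 3 were past the thresholds between resistant and parental cells, and 5 were with the replicate block of cell lines and 5 at an adjusted p below 0.05, with 3 to 5 when 1 line was left out (5 without line #7). Between P12 and resistant cells 1 passed, but 2 with the replicate block and 2 at an adjusted p below 0.05, and 0 with a pseudocount of 8, with no filter, without a trend, with the compared states alone, with P5 of lines #7 and #9 left out and without any 1 line (0 to 0). Between P12 and parental cells the count was 0 under every alternative. For P5 it was 0, and 1 at an adjusted p below 0.05. Of the other core protein genes 3 passed between resistant and parental cells, 6 with the replicate block, 7 at an adjusted p below 0.05, 1 with the compared states alone and 0 to 5 when 1 line was left out. Of the glycosaminoglycan genes 7 passed, 14 with the replicate block, 16 at an adjusted p below 0.05 and 4 to 11 when 1 line was left out (4 without line #6, 11 without line #9). The causes were not tested. Without 1 line, calls of Optc, Col18a1, Adamts1, Ext2, Chst1, Sox6, Sox9, Nyx and Glce were also lost in at least 1 case, with adjusted p up to 0.060. The paired fit lost none of the calls named in the report. Low genes are limited by depth, since values under about 4.07 normalized counts rest on 3 reads or fewer.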
